A study of Mus musculus with 24 samples.

Results

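Gene expression was compared between the proximal part of the upper jaw (maxilla) of mouse embryos that had lost the type II TGF-beta receptor, Tgfbr2, in neural crest cells and that of control littermates. The 6 arrays compared, 3 mutant and 3 control, were chosen by their labels and belong to a series of 24 arrays that also covers the distal maxilla and both ends of the mandible. The embryos were C57B6 mice at embryonic day 14.5 from crosses of Wnt1-Cre;Tgfbr2 fl/+ with Tgfbr2 fl/fl mice. Mutants were picked out by a cleft palate and a defect of the skull vault, and the controls are described only as littermates, without their alleles. The labels call the pieces proximal maxilla bone and leave unsaid whether an array held 1 embryo or a pool. Biotin-labelled target made from 5 µg of RNeasy-purified RNA was hybridised to an Affymetrix mouse genome array. Each array gives 1 value per probe set on a log2 scale, so that a difference of 1 is a 2-fold change, and 12811 genes were bright enough to be tested.

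TGF-beta ligands bind Tgfbr2, which recruits and phosphorylates the type I receptor Tgfbr1, and this in turn phosphorylates the transcription factors Smad2 and Smad3. Wnt1-Cre is active in the dorsal neural tube and in the neural crest cells that leave it, so the floxed receptor is lost in the skeleton, dermis, tendon and other connective tissue that the crest forms in the face. Muscle fibres, endothelium, macrophages and the surface, oral and nasal epithelia come from other lineages and keep their receptor. The maxilla at this stage holds the palatal shelves, tooth germs, whisker follicles and facial skin, and it borders on the nasal cavity.

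The 3 mutant arrays differed in tissue markers. Genes of the nasal lining were far lower in mutants 1 and 2 than in mutant 3 and all controls, and the labels do not say what each dissected piece included. The secreted nasal protein gene Bpifa1 read 13.01, 13.72 and 13.12 in controls 1 to 3 and 4.55, 4.59 and 13.18 in mutants 1 to 3, so only mutant 3 lay among the controls. The mean of the 16 nasal and olfactory genes tested, each centred on all 24 arrays, was 2.24, 2.39 and 2.27 in controls against −0.97, −0.70 and 1.51 in mutants. Skeletal muscle genes ran the other way, with list means of −1.31, −1.59 and −0.69 in controls and 1.72, 0.80 and −0.17 in mutants. Cartilage genes stood at 1.30, 0.22 and 1.26 in controls and −1.91, −2.02 and 0.51 in mutants. Epidermal genes were at −1.76, −1.42 and 0.01 in controls and 0.60, 0.51 and 0.23 in mutants, so control 3 held more skin signal than the other controls.

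Over all genes tested, mutants 1 and 2 differed from each other by a root mean square of 0.231 (log2), but from mutant 3 by 0.519 and 0.477, whereas pairs of controls differed by 0.253 to 0.265. The X-linked transcript Xist was high in control 1 (13.21) and low in controls 2 and 3 (6.49 and 6.28), while the mutants read 12.90, 12.99 and 13.26. The Y-linked gene Kdm5d read 8.02, 9.63 and 9.38 in controls and 8.73, 8.66 and 7.72 in mutants, so arrays with high Xist also had Y-linked signal. Whether Xist or tissue content accounts for a given difference was not tested. In bulk RNA, fewer cells of a type cannot be told apart from less RNA per cell.

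**Figure D1:**
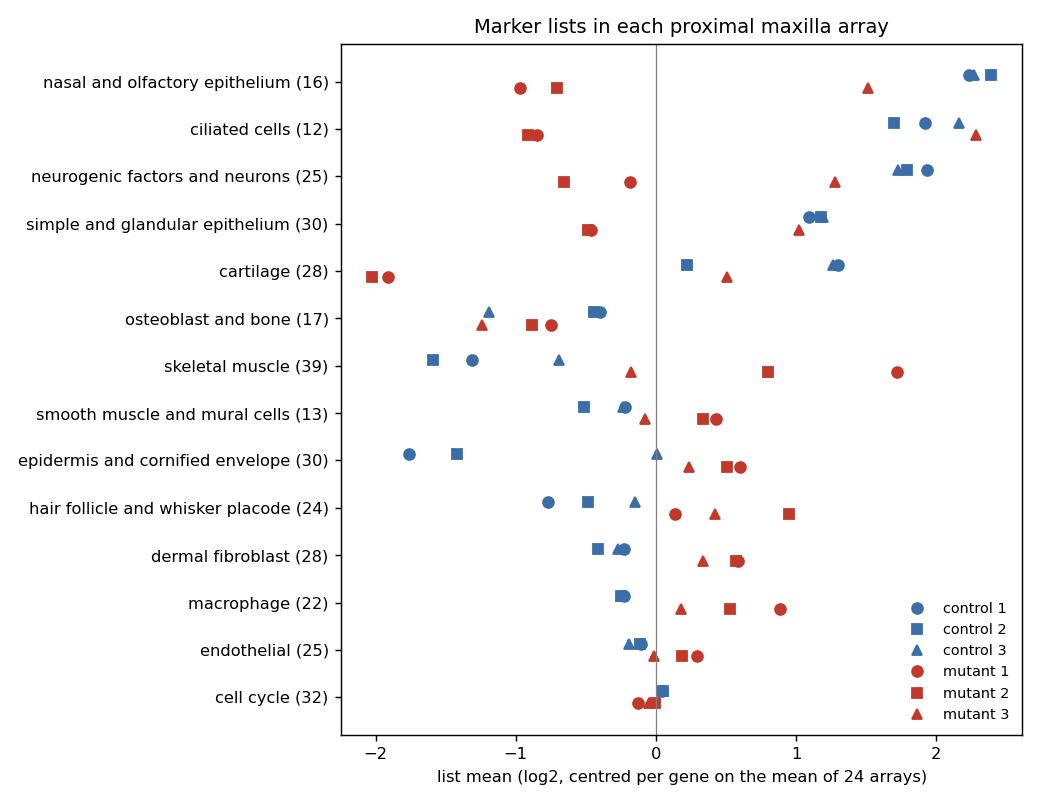
Mean of each marker list in the 6 proximal maxilla arrays, on a log2 scale after centring each gene on the mean of all 24 arrays; the number of genes is in brackets, circles, squares and triangles are replicates 1, 2 and 3, controls are blue and mutants red. Mutants 1 and 2 stand far from the controls for nasal, ciliated and cartilage genes, where mutant 3 does not, whereas all 3 mutants are above all 3 controls for muscle, epidermal, hair follicle, dermal and macrophage genes.

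Mutant and control arrays differed at 2984 genes (limma, adjusted p under 0.05), which is 23.3% of the genes tested. Of these, 1558 were higher in mutants (12.2%) and 1426 lower (11.1%), and the median difference over all genes was 0.01. At least 2-fold differences were seen for 812 of them (6.34%), 356 higher (2.78%) and 456 lower (3.56%). The 3 mutant and 3 control values did not overlap for 4640 genes (36.2%), and 2734 of those genes were also called (21.3%). Mutant 3 lay on the called side of the control mean for 2959 of the 2984 genes, with smaller differences. Mutant 3 was part of the fit that made the calls, so this count is no separate check. The genes called higher had a median difference of 0.55, which was 0.34 in mutant 3 alone, and those called lower had −0.65, against −0.33 in mutant 3. The count was 1363 without mutant 1, 1568 without mutant 2, 1950 without control 1, 3932 without mutant 3 and 16 without mutants 1 and 2. With a spread estimated from the 6 arrays alone it was 761, and with covariates for nasal and muscle content (the 2 list means) 27. A permutation of 3 against 3 arrays cannot give a 2-sided exact p below 0.10, so single genes rest on limma's pooled spread. Since nothing in the labels ties a replicate to an embryo of its own, the p-values cover spread among arrays alone, and part of it may be technical. That spread is pooled over all 24 arrays and is not the spread of the 6 arrays compared. For Neurod1 the standard deviation was 3.16 in mutants and 0.08 in controls, beside a standard error of 1.01 for the difference. For Otx2 these were 3.53, 0.26 and 1.19.

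Genes of the nasal lining and of neurons were lower in mutants. Of 16 nasal and olfactory genes 12 fell and 0 rose, with a list median of −2.48, and of 25 neurogenic and neuronal genes 16 fell and 0 rose, with a median of −1.45. Across all genes, 11.1% fell. Both lists were lowest in mutants 1 and 2, and mutant 3's own differences from the control mean had medians of −0.66 and −0.67 for these lists. A spread from the 6 arrays alone left 3 nasal genes and 1 neuronal gene as falls, among 272 falls over all genes. Without mutant 3 the counts were 13 and 18, among 1893 falls over all genes.

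Cnga2, a subunit of the channel that carries the odorant response, read 8.26, 8.19 and 8.23 in controls and 4.99, 5.21 and 7.03 in mutants. All mutants were below all controls, with a difference of −2.49 ± 0.44 (standard error of the fit to all 24 arrays, n = 3 per group, limma adjusted p = 0.00102). Omp, the olfactory marker protein of mature sensory neurons, was at 8.78, 8.31 and 8.08 against 6.93, 7.26 and 7.43, a fall of 1.18 (adjusted p = 0.000693) with mutant 3 closest to the controls. Sult1c1, a sulfotransferase gene, gave 7.28, 8.97 and 8.57 in controls and 4.23, 4.33 and 5.64 in mutants, again without overlap (−3.54 ± 0.55, adjusted p = 0.000468). Otx2, a homeobox factor of the anterior head and nasal epithelium, was at 11.14, 10.65 and 10.76 in controls and 4.04, 4.15 and 10.21 in mutants. Neurod1, a neurogenic factor, behaved likewise, at 11.22, 11.37 and 11.32 against 4.97, 5.01 and 10.47 (−4.49 ± 1.01, adjusted p = 0.00438). The early neurogenic factor Neurog1 was closer to its detection limit, at 7.19 to 7.30 in controls and 6.26, 6.35 and 6.84 in mutants (−0.76 ± 0.12, adjusted p = 0.000601). The neuronal tubulin Tubb3 lay between 11.53 and 11.56 in controls and at 8.25, 7.20 and 10.63 in mutants (−2.85 ± 0.61). The calls of Bpifa1 and Otx2 were lost without mutant 1 (adjusted p = 0.0798 and 0.0692) and without mutant 2 (0.0724 and 0.0620).

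Ciliated cells line the nasal cavity, and their 12 genes were near background in mutants 1 and 2, with list means of −0.85 and −0.91. Mutant 3 stood at 2.29, above the controls at 1.92, 1.70 and 2.16. Of the 12, 3 passed, all as falls (25%, against 11.1% of all genes). Without mutant 3 the count was 11, among 1893 falls over all genes. Foxj1, the regulator of motile cilia, read 9.68, 9.19 and 9.87 in controls and 5.41, 5.55 and 10.15 in mutants, and missed the threshold (adjusted p = 0.0615). Simple and glandular epithelium had the same pattern, with 16 of 30 genes falling and 1 rising (53.3% and 3.33%, against 11.1% and 12.2% of all genes). The list median was −0.81, and −0.16 in mutant 3. Foxa1, a pioneer factor of such epithelia, was at 11.56, 11.94 and 11.67 in controls and 5.83, 5.72 and 11.49 in mutants (−4.04 ± 1.10, adjusted p = 0.0132). The adhesion molecule Epcam stayed bright, at 13.24 to 13.29 against 11.62, 11.74 and 12.99 (−1.15 ± 0.32, adjusted p = 0.0154). Cdh1, the E-cadherin shared by all epithelia, was at 11.99 to 12.17 in controls and 11.61, 11.52 and 12.22 in mutants and did not pass (adjusted p = 0.388). The Foxa1 and Epcam calls were lost without mutant 1 (adjusted p = 0.0969 and 0.104) or mutant 2 (0.0905 and 0.0848). In a fit of the 6 arrays alone, 0 genes of the ciliated and of the simple epithelial list fell, and 1 simple epithelial gene rose.

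Cartilage genes were lower in mutants 1 and 2 as well. Of 28 tested, 17 fell and 1 rose (60.7% and 3.57%, against 11.1% and 12.2% of all genes). The list median was −2.16, and −0.48 in mutant 3. Matrilin-1, Matn1, a protein of cartilage matrix, read 13.39, 11.68 and 13.26 in controls and 5.65, 5.32 and 12.21 in mutants. Type II collagen, Col2a1, was at 14.05, 12.83 and 13.90 against 9.49, 8.82 and 13.15, with mutant 3 inside the control range. Sox9, the factor that commits cells to cartilage, was at 10.47, 10.10 and 10.80 in controls and 8.66, 8.91 and 10.03 in mutants (−1.25 ± 0.40, adjusted p = 0.0303). Its partner Sox6 separated the groups more evenly, at 10.16 to 10.28 against 8.89, 8.97 and 9.46 (−1.12 ± 0.21, adjusted p = 0.00136). The matrix protein gene Chad fell by 2.02 (9.34, 7.90 and 9.19 in controls; 6.42, 6.51 and 7.43 in mutants; adjusted p = 0.0048). The gene that rose was Pth1r, the receptor for parathyroid hormone and its related peptide, at 10.30 to 10.58 against 10.78 to 11.41 (0.70 ± 0.16, adjusted p = 0.00506). Matn1, Col2a1 and Sox9 lost their calls without mutant 1 (adjusted p = 0.175, 0.179 and 0.166) and without mutant 2 (0.169, 0.203 and 0.118). They were also lost without control 1 (0.0993, 0.119 and 0.0760) and without control 3 (0.0902, 0.105 and 0.109), and that of Col2a1 without control 2 (0.0534). A spread from the 6 arrays alone left 1 cartilage gene as a fall. Without mutant 3, 24 fell, among 1893 falls over all genes.

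Bone, the tissue named in the labels, was present in both groups. Of 17 osteoblast and bone genes 3 fell (17.6%, against 11.1% of all genes) and 0 rose, with a median of −0.18, and −0.60 in mutant 3. Col1a1, the main collagen chain of bone, was at 12.76, 11.47 and 12.05 in controls and 13.11, 12.62 and 12.33 in mutants (adjusted p = 0.182). Sp7, the osteoblast transcription factor, read 9.75, 10.09 and 9.25 against 9.73, 9.67 and 9.36 (adjusted p = 0.769). Tnfrsf11b, the decoy receptor that restrains osteoclasts, fell by 1.41, from 7.39 to 7.68 in controls to 5.63, 6.16 and 6.64 in mutants (adjusted p = 0.0046). The collagenase gene Mmp13 was at 8.50, 9.97 and 5.75 in controls and 5.49, 5.63 and 4.52 in mutants, so the lowest control lay just above the mutants. Its call (−2.86, adjusted p = 0.0252) was lost without control 1 (adjusted p = 0.0839), control 2 (0.143), mutant 1 (0.0658), mutant 2 (0.0545) or mutant 3 (0.0638).

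**Figure D2:**
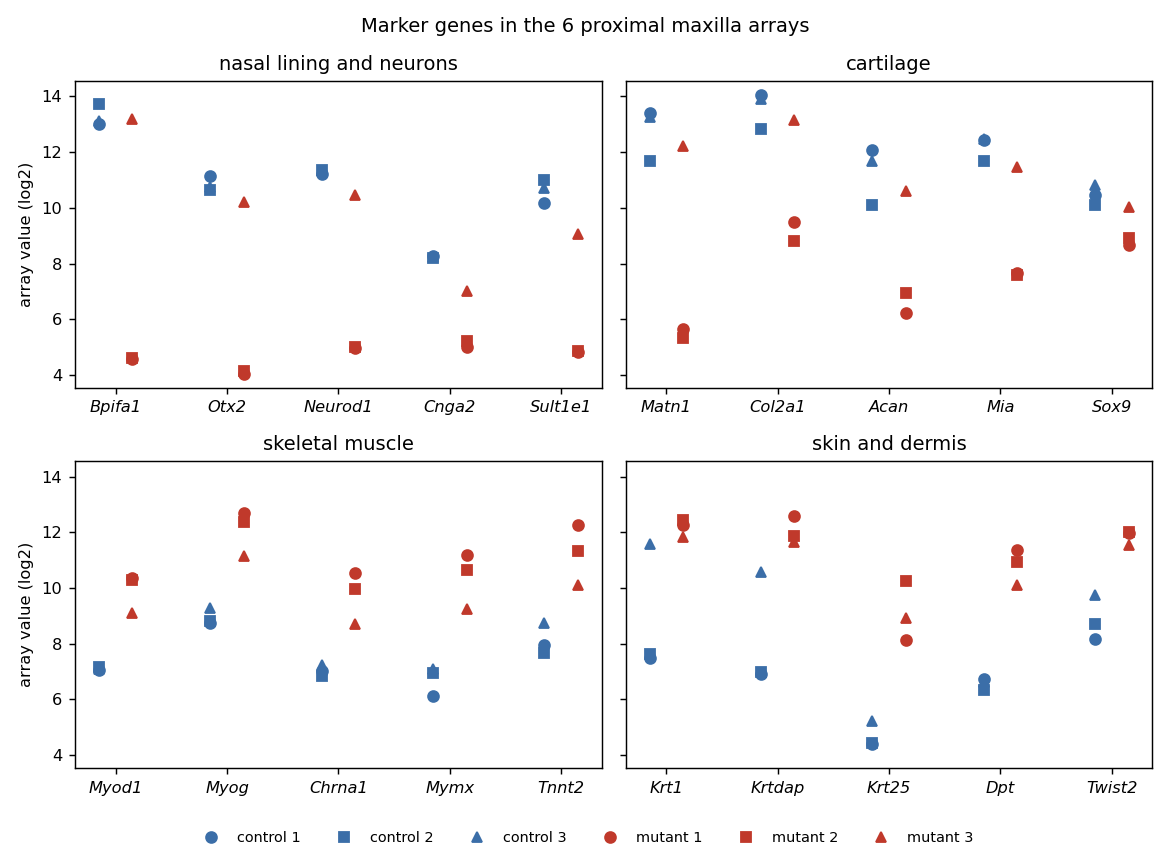
Array values (log2) of 5 marker genes for each of 4 panels (nasal lining and neurons, cartilage, skeletal muscle, skin and dermis) in each proximal maxilla array; circles, squares and triangles are replicates 1, 2 and 3, controls are blue and mutants red. Mutant 3 lies among or just below the controls for Bpifa1, Otx2, Matn1 and Col2a1, and above every control for the muscle, skin and dermal genes.

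Skeletal muscle genes were higher in all 3 mutants. Of 39 tested, 23 rose and 0 fell (59.0%, against 12.2% of all genes), and 31 had no overlap between the groups (19.5% of all genes). The list median was 2.32, and 1.12 in mutant 3. Myod1, the determination factor of the lineage, read 7.05, 7.16 and 7.11 in controls and 10.36, 10.28 and 9.11 in mutants (2.81 ± 0.51, adjusted p = 0.00112). Myog, which drives differentiation, was at 8.74, 8.80 and 9.30 against 12.71, 12.35 and 11.16 (3.13 ± 0.68, adjusted p = 0.00348). Mymx, the membrane micropeptide that fuses myoblasts, was at 6.14, 6.95 and 7.10 in controls and 11.20, 10.66 and 9.26 in mutants (3.64 ± 0.76, adjusted p = 0.00276). Each of these put mutant 3 between the controls and the other mutants. A separate list of 10 head muscle regulators went the other way. It gave 2 rises and 4 falls (20% and 40%, against 12.2% and 11.1% of all genes), with a median of −0.56. Its list means were 0.46, 0.53 and 0.42 in controls and −0.44, 0.02 and 0.39 in mutants.

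The acetylcholine receptor subunit Chrna1 rose by 2.71 ± 0.56, from 6.84 to 7.25 in controls to 10.56, 9.96 and 8.73 in mutants (adjusted p = 0.00249). Tnnt2, a troponin of embryonic muscle, was at 7.97, 7.67 and 8.76 against 12.26, 11.34 and 10.13 (3.11 ± 0.85, adjusted p = 0.0133). Mef2c, a cofactor of the myogenic factors, changed less, at 10.25 to 10.62 against 11.39, 11.38 and 10.77 (0.77 ± 0.14, adjusted p = 0.00132). Musk, the kinase of the neuromuscular junction, was at 5.96, 6.12 and 6.03 in controls and 7.08, 6.68 and 6.27 in mutants (0.64 ± 0.15, adjusted p = 0.00553). The progenitor factors Pax7 and Pax3 did not pass (−0.52 ± 0.42 and −0.46 ± 0.38). Pax7 was at 8.81, 9.41 and 9.45 in controls and 8.75, 8.47 and 8.87 in mutants, and Pax3 is also expressed outside muscle. With a spread from the 6 arrays alone 8 muscle genes passed, among 489 rises over all genes. Without mutant 3 the count was 34, among 2039 rises over all genes. The Tnnt2 call was lost without mutant 1 (adjusted p = 0.0846).

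Myogenic factors bind the E-box CAGCTG, and the promoters of 3 muscle genes that rose are printed because each holds it within 120 bases before the start of the gene (RefSeq, GRCm38.p6), with the E-box in capitals.
Mybph, chr1:134193328-134193447, plus strand: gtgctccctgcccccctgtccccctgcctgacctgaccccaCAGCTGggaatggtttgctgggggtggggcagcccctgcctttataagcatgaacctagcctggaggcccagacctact
Tnni1, chr1:135799301-135799420, plus strand: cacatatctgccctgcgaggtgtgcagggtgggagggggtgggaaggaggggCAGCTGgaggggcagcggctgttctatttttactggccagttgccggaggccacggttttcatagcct
Chrna1, chr2:73580339-73580458, minus strand: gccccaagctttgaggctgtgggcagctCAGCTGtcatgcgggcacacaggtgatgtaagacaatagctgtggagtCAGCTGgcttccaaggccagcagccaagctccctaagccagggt
Over windows of 300 bases, from 250 before to 50 after the start, CAGCTG, which reads the same on both strands, was found in 15 of the 30 promoters held for tested muscle genes. It was found in 2 of 10 promoters of nasal genes, in 16.1% of all 27025 promoters held and in 15.01% of those of tested genes. Chrna1 had it at 92 and 44 bases before the start, Mybph at 79 and Tnni1 at 68. Mybph, a myosin-binding protein, was at 6.33 to 7.55 in controls and 11.06, 9.82 and 8.70 in mutants (2.97 ± 0.76). Tnni1, the slow troponin inhibitor, was at 8.04 to 9.34 against 12.55, 11.58 and 10.24 (2.80 ± 0.80). The Mybph call was lost without mutant 1 (adjusted p = 0.0721), and that of Tnni1 without control 1 (0.0510), control 2 (0.0666), mutant 1 (0.109) or mutant 2 (0.0598).

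Skin genes rose in all 3 mutants, and here mutant 3 moved nearly as far as the others. Of 30 epidermal genes 21 rose and 0 fell (70.0%, against 12.2% of all genes), with a median of 1.47, and 1.26 in mutant 3. The basal keratin Krt15 was at 9.96, 10.79 and 11.92 in controls and 13.09, 13.14 and 12.85 in mutants (2.13 ± 0.34, adjusted p = 0.000558). Trp63, the regulator of stratified epithelium, was at 8.91, 10.20 and 10.30 against 10.95, 11.31 and 10.92 (1.26 ± 0.29, adjusted p = 0.00553). The desmosomal cadherin Dsc3 rose by 1.88 ± 0.31, from 7.96, 8.18 and 9.35 to 10.42, 10.77 and 9.94 (adjusted p = 0.000605). For these, every mutant was above every control, and control 3 was the highest control.

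Differentiation genes showed the same difference among controls more strongly. The suprabasal keratin Krt1 was at 7.495 and 7.64 in controls 1 and 2, but 11.58 in control 3, against 12.25, 12.45 and 11.85 in mutants (3.28 ± 0.78, adjusted p = 0.00577). Krtdap, a secreted product of differentiating keratinocytes, was at 6.93, 6.996 and 10.58 in controls and 12.58, 11.85 and 11.66 in mutants. Against control 3 alone, the mutant Krt1 values were therefore within 1 log2 unit. Lor, the main cornified envelope protein, did not pass, at 7.83, 7.74 and 8.85 against 8.48, 7.82 and 7.86 (adjusted p = 0.93). Only 1 epidermal gene passed with a spread from the 6 arrays alone, while 21 passed without mutant 3, among 2039 rises over all genes.

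Hair follicle genes went with the skin: 13 of 24 rose and 3 fell (54.2% and 12.5%, against 12.2% and 11.1% of all genes). The list median was 1.02, and 0.69 in mutant 3. Krt25, a keratin of the inner root sheath, was at 4.42, 4.44 and 5.24 in controls, near the bottom of the array's range, and at 8.13, 10.26 and 8.93 in mutants. That was a 21.3-fold difference (4.41 ± 0.64 on the log2 scale, adjusted p = 0.000315), with mutant 3 at 4.23 above the control mean. Tchh, the trichohyalin that Krt25 filaments embed in, was at 4.07, 3.99 and 4.59 against 7.46, 8.21 and 6.91 (3.31 ± 0.51, adjusted p = 0.000421). Krt27 and Krt71, also keratins of the inner root sheath, rose by 2.04 ± 0.31 (adjusted p = 0.000403) and 2.08 ± 0.35 (adjusted p = 0.00074). The follicle calcium-binding gene S100a3 rose by 2.09 ± 0.34. Among placode signals, the Wnt effector Lef1 was at 8.82, 9.14 and 9.52 in controls and 10.08, 10.57 and 10.11 in mutants (1.09 ± 0.25, adjusted p = 0.00514). With a spread from the 6 arrays alone 5 of the 24 rose.

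The promoters of the 3 follicle keratins that rose together are printed for the stretch of 120 bases before the start (RefSeq, GRCm38.p6), with the TATA box letters TATAAA in capitals.
Krt25, chr11:99322952-99323071, minus strand: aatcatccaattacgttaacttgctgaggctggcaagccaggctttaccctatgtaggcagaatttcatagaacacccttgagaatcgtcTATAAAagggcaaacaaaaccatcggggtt
Krt27, chr11:99351119-99351238, minus strand: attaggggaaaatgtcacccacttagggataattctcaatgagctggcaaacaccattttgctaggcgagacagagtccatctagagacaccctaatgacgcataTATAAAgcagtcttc
Krt71, chr15:101743098-101743217, minus strand: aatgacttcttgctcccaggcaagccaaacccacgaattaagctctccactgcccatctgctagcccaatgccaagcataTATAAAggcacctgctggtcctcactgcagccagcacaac
TATAAA, searched on the gene's own strand, lay 30 bases before the annotated start in Krt25, 15 in Krt27 and 40 in Krt71. Within the 300-base windows it was present in 7 of 19 promoters of tested epidermal genes and 4 of 18 of tested follicle genes, against 8.88% of all promoters and 4.80% of those of tested genes. A match describes letters and does not show a site in use.

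Of 10 genes listed for eye, pituitary and forebrain, 3 rose and 3 fell (30% each, against 12.2% and 11.1% of all genes). The 3 that rose, Mitf, Dct and Tyr, act in pigment cells and were grouped after their values were seen. Mitf, the master regulator of pigment cells, was at 7.89, 7.90 and 8.08 in controls and 9.26, 9.44 and 8.92 in mutants (1.25 ± 0.15, adjusted p = 8.9e-05). Dct, an enzyme of melanin synthesis, was at 7.37, 7.42 and 8.40 against 11.07, 10.87 and 10.08 (2.94 ± 0.60, adjusted p = 0.00242). Tyr, tyrosinase itself, rose by 1.90 ± 0.37, from 5.34, 5.43 and 5.73 to 7.92, 7.70 and 6.58. All 3 genes passed in the fit of 6 arrays and separated the groups without overlap. Pigment cells are neural crest derivatives that settle in skin, and the same arrays were high in epidermal genes, whose part in these rises was not tested.

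Dermal fibroblast genes, many of them active in crest-derived facial dermis, gave 16 rises and 1 fall among 28 (57.1% rose, against 12.2% of all genes). The list median was 0.63, and 0.35 in mutant 3. Dpt, a dermal matrix protein, was at 6.72, 6.33 and 6.64 in controls and 11.36, 10.93 and 10.10 in mutants, 18.8-fold higher (4.23 ± 0.85, adjusted p = 0.00218). Twist2, a factor of dermal progenitors, was at 8.17, 8.70 and 9.76 against 11.99, 12.02 and 11.55 (2.97 ± 0.51, adjusted p = 0.000787). Tbx18, a T-box factor of dermal condensates, was at 8.11, 7.04 and 8.05 in controls and 10.73, 10.85 and 10.58 in mutants (2.99 ± 0.55, adjusted p = 0.00121). Every mutant was above every control in these genes, and mutant 3 was the lowest mutant in each. The dermal Wnt inhibitor Dkk2 rose by 1.62 ± 0.21 (10.28 to 10.42 in controls; 12.21, 12.18 and 11.57 in mutants; adjusted p = 0.00017). The broad fibroblast receptor gene Pdgfra changed little, by 0.38 ± 0.08 (adjusted p = 0.00284). The homeobox gene Hoxd1, outside these lists, went from 4.35 to 4.74 in controls to 8.73, 8.62 and 7.72 in mutants (3.80 ± 0.73, adjusted p = 0.0015). With a spread from the 6 arrays alone 10 dermal genes rose.

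Matrix genes mostly rose or did not pass. Of 37 matrix and elastic fibre genes 13 rose and 3 fell (35.1% and 8.11%, against 12.2% and 11.1% of all genes). Type VI collagen Col6a1 rose by 1.28 ± 0.22 (11.03 to 11.33 against 12.97, 12.55 and 11.94, adjusted p = 0.000831), and the small proteoglycan Lum by 0.70 ± 0.09 (adjusted p = 0.000171). The genes that fell were Fbln5 and Mfap4, which encode proteins of elastic fibres, and Col8a1, a short-chain collagen. Fbln5 was at 10.86, 10.82 and 10.72 in controls and 10.49, 10.21 and 10.16 in mutants (−0.51 ± 0.11, adjusted p = 0.00385), but over the mean of its probe sets it was −0.18 and did not pass. Mfap4 was at 11.64 to 11.71 against 10.94, 11.23 and 10.90 (−0.65 ± 0.14, adjusted p = 0.00372). Col8a1 fell by 1.21 (adjusted p = 0.00289). Its partner Col8a2, which is not on the list, was at 12.33, 12.22 and 12.30 against 11.16, 11.29 and 10.97, a fall of 1.14 ± 0.13 (adjusted p = 7.74e-05) in which mutant 3 was the lowest. Fbln5, Mfap4 and Col8a2 thus fell in mutant 3 as far as or further than in mutants 1 and 2, unlike nasal and cartilage genes.

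Among 22 macrophage genes, 17 rises and 0 falls passed (77.3%, against 12.2% of all genes), with a median of 0.77, and 0.41 in mutant 3. The lysosomal marker Cd68 was at 7.35, 7.75 and 7.16 in controls and 8.93, 8.66 and 8.11 in mutants (1.15 ± 0.25, adjusted p = 0.00337). The complement gene C1qa was at 9.25 to 9.32 against 10.76, 10.34 and 9.95 (1.07 ± 0.26, adjusted p = 0.0066), a call lost without mutant 1 (adjusted p = 0.0534). Cma1, a mast cell protease, was at 6.85, 7.68 and 8.44 in controls and 11.42, 11.12 and 10.31 in mutants (3.29 ± 0.72, adjusted p = 0.00368). In each, mutant 3 had the lowest mutant value and still lay above every control. With a spread from the 6 arrays alone 5 macrophage genes rose.

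Endothelial genes moved by smaller amounts and in both directions. Of 25, 11 rose and 2 fell (44.0% and 8%, against 12.2% and 11.1% of all genes). The list median was 0.36, and 0.09 in mutant 3. Esm1, a secreted marker of sprouting tip cells, was at 5.80, 6.12 and 6.13 in controls and 7.43, 7.25 and 7.20 in mutants (1.28 ± 0.17, adjusted p = 0.000206). Gpihbp1, which holds lipoprotein lipase on capillaries, was at 8.25, 8.39 and 8.20 against 9.36, 9.17 and 9.09 (0.93 ± 0.11, adjusted p = 8.9e-05). Plvap, a component of endothelial fenestrae, was at 10.06 to 10.16 against 10.54, 10.52 and 10.68 (0.48 ± 0.07, adjusted p = 0.000332). The junction genes Pecam1 and Cdh5 rose by 0.56 ± 0.10 and 0.50 ± 0.08. The falls were those of the ETS factors Erg and Fli1. Erg was at 9.93, 10.29 and 10.06 in controls and 9.21, 9.60 and 9.15 in mutants (−0.77 ± 0.15, adjusted p = 0.00183), and Fli1 at 10.51, 10.77 and 10.54 against 10.03, 10.02 and 9.94 (−0.61 ± 0.11, adjusted p = 0.00139). Both factors are also expressed in crest mesenchyme and cartilage precursors. Among smooth muscle and mural genes 7 of 13 rose (53.8%) and 0 fell. The rises included the pericyte channel Kcnj8 (1.28 ± 0.25, adjusted p = 0.00176). When the fit held the 6 arrays alone, 7 endothelial genes rose and 2 fell.

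The TGF-beta pathway was measured at 32 genes, of which 7 rose and 2 fell (21.9% and 6.25%, against 12.2% and 11.1% of all genes), with a median of 0.08. Among ligands, Tgfb2 was at 11.46, 11.53 and 11.56 in controls and 11.999, 12.15 and 12.22 in mutants (0.61 ± 0.08, adjusted p = 0.000217), with mutant 3 the highest. Tgfb1 and Tgfb3 did not pass, at 0.07 ± 0.22 and 0.12 ± 0.09. The activin subunit gene Inhbb was at 6.35, 6.65 and 7.30 against 8.19, 8.21 and 7.77 (1.29 ± 0.28, adjusted p = 0.00353).

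Among receptors, the deleted gene Tgfbr2 read 11.61, 11.52 and 11.71 in controls and 12.56, 12.47 and 12.16 in mutants on its brightest probe set (0.78 ± 0.09, adjusted p = 8.9e-05). A dimmer Tgfbr2 probe set was also higher in every mutant, at 7.48, 7.39 and 7.46 against 7.97, 8.16 and 7.93, and the other lay near background at 4.28 to 4.57. The mutant signal was therefore not lower. The sources name no deleted exon, and so Tgfbr2 signal cannot serve as a check of genotype here. The coreceptor Tgfbr3, betaglycan, had the largest difference of the pathway, at 10.45, 10.24 and 10.63 against 12.39, 12.38 and 12.02, or 3.54-fold (1.82 ± 0.23, adjusted p = 0.000138). The endothelial receptors Eng and Acvrl1 were higher by 0.39 ± 0.07 and 0.50 ± 0.13 (adjusted p = 0.000976 and 0.0101), and Itgav, an integrin chain that frees latent ligand, by 0.36 ± 0.08 (adjusted p = 0.00328).

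The type I receptor Tgfbr1 was lower in every mutant, at 12.55 to 12.67 against 11.96, 12.03 and 12.40 (−0.48 ± 0.11, adjusted p = 0.00401). The activin receptor Acvr2b fell by 0.70 (9.02 to 9.26 against 8.38, 8.31 and 8.71, adjusted p = 0.00319). The signal transducers Smad2 and Smad3 did not pass (0.16 ± 0.09 and 0.14 ± 0.07). The Acvrl1 call was lost without mutant 1 (adjusted p = 0.0679) or mutant 2 (0.0613). In mutant 3 alone, Tgfb2 differed from the control mean by 0.70.

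Of 33 genes that respond to TGF-beta in many cells, 8 were up and 4 down in mutants (24.2% and 12.1%), around a median of −0.07. Over all genes the shares were 12.2% and 11.1%, so the share of falls was near that of all genes. Of the falls, Ccn2, a direct Smad target, was at 12.36, 11.88 and 12.61 in controls and 9.97, 10.06 and 11.12 in mutants (−1.90 ± 0.41, adjusted p = 0.00311), and cartilage also makes much of it. Its relative Ccn1 fell by 0.87 (adjusted p = 0.00277), with mutant 3 at 9.70 beside controls at 9.78 to 10.28. The feedback inhibitor Pmepa1 was at 9.98, 9.85 and 10.12 against 9.73, 9.67 and 9.62 (−0.31 ± 0.08, adjusted p = 0.00741), and the tendon factor Scx at 7.59, 7.74 and 7.85 against 7.37, 7.15 and 6.68 (−0.66 ± 0.20, adjusted p = 0.0249). In Pmepa1 and Scx mutant 3 was the lowest array.

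Among the rises, the cell cycle inhibitor Cdkn2b was at 6.64 to 6.92 in controls and 7.81, 7.88 and 7.30 in mutants (0.93 ± 0.18, adjusted p = 0.00156). The smooth muscle actin Acta2 was at 11.26 to 11.50 against 13.21, 12.90 and 12.24 (1.44 ± 0.34), in arrays whose skeletal muscle list means were also high. With nasal and muscle covariates the Acta2 difference was 0.36 (adjusted p = 0.53), over the mean of its probe sets 0.59, and with the 12 maxilla arrays its call was lost (adjusted p = 0.0538). Snai2, a factor of crest mesenchyme, was at 11.69, 11.89 and 11.80 against 12.27, 12.35 and 12.21 (0.48 ± 0.08, adjusted p = 0.00058). Tgfbi (0.56 ± 0.13), the growth factor gene Pdgfb (0.43 ± 0.10), Col3a1 (0.38 ± 0.07), Postn (0.34 ± 0.10) and the corepressor Ski (0.27 ± 0.08) made up the rest. The Scx call was lost without control 2 (adjusted p = 0.0614), control 3 (0.0826), mutant 2 (0.0560) or mutant 3 (0.0998). Those of Postn and Ski were lost without control 2 (0.0903 and 0.0546), mutant 1 (0.130 and 0.113) or mutant 2 (0.0586 and 0.0642), that of Postn also without control 3 (0.0777) and that of Ski without control 1 (0.0726).

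**Figure D3:**
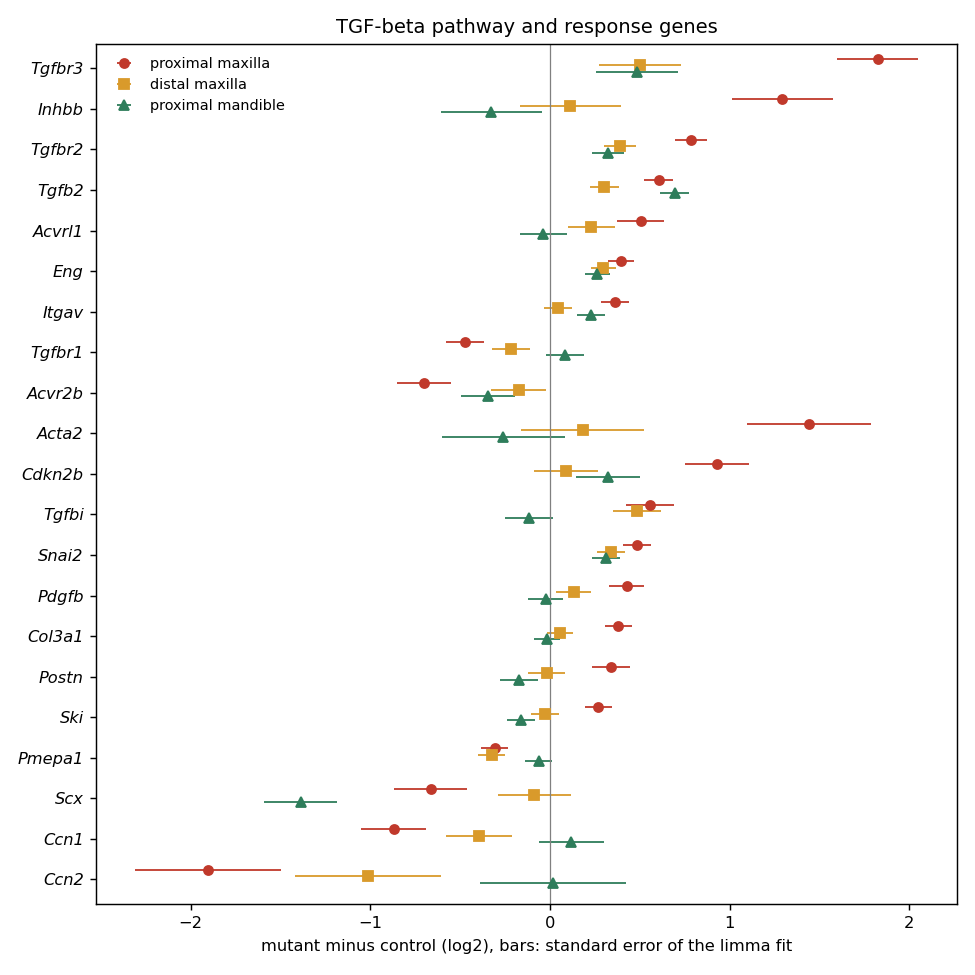
Mutant minus control difference (log2) with its standard error for the TGF-beta pathway and response genes that passed in the proximal maxilla, shown for the proximal maxilla (red circles), distal maxilla (orange squares) and proximal mandible (green triangles), 3 arrays per group. Tgfb2 was higher in mutants by 0.61, 0.30 and 0.69 in the 3 regions, but was not called in the distal maxilla (limma adjusted p = 0.163). Tgfbr3 and Inhbb had their largest values in the proximal maxilla.

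Among 21 hedgehog genes, 11 rises and 2 falls passed (52.4% and 9.52%, against 12.2% and 11.1% of all genes). The list median was 0.30, and 0.17 in mutant 3. The receptor Ptch1, itself a target of the pathway, was at 11.00 to 11.10 in controls and 11.67, 11.95 and 11.39 in mutants (0.61 ± 0.12, adjusted p = 0.00176), but 0.33 and not called over the mean of its probe sets. The effector Gli1 was at 8.01 to 8.12 against 9.22, 9.43 and 8.64 (1.03 ± 0.15, adjusted p = 0.000358), and the inhibitor Hhip, another target, at 7.86 to 8.24 against 8.78, 9.03 and 8.64. The coreceptor Cdon rose by 0.65 ± 0.13. The ligand gene Shh, which epithelial placodes and palatal ridges express, was at 6.23, 7.46 and 8.16 in controls and 8.47, 10.39 and 8.64 in mutants (1.88 ± 0.47), a call lost without control 1 (adjusted p = 0.0576) or mutant 2 (0.0633). In a fit of the 6 arrays alone, 4 hedgehog genes rose.

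Among 40 Wnt pathway genes, 15 rises and 2 falls passed (37.5% and 5.00%, against 12.2% and 11.1% of all genes). The list median was 0.34, and 0.24 in mutant 3. The feedback target Axin2 was at 8.93, 9.05 and 9.20 in controls and 9.88, 9.74 and 9.57 in mutants (0.67 ± 0.16, adjusted p = 0.00692). Apcdd1, a membrane inhibitor expressed in skin, was at 10.48, 10.54 and 11.23 against 12.59, 12.54 and 12.24 (1.70 ± 0.27, adjusted p = 0.000507). The ligand gene Wnt2 was at 7.29, 7.85 and 7.64 against 9.75, 9.72 and 8.86 (1.85 ± 0.30), and Wnt16 at 7.43 to 7.62 against 8.35, 8.45 and 8.18. BMP genes gave 1 rise and 2 falls of 28 (3.57% and 7.14%), with a median of −0.10, among the falls Bmp5 (−1.50 ± 0.36, adjusted p = 0.00623). FGF genes gave 5 rises and 4 falls of 22 (22.7% and 18.2%). Fgf10, the mesenchymal ligand of the palate, was at 6.55 to 6.97 against 7.66, 7.80 and 7.44, and Fgf15 at 7.45 to 7.60 against 5.51, 5.45 and 6.81. When the fit held the 6 arrays alone, 12 Wnt genes rose.

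For genes of the palatal shelves, 9 of 25 were higher in mutants and 0 lower (36.0%, against 12.2% of all genes). The list median was 0.38, and 0.33 in mutant 3. Osr2, a zinc finger factor needed for shelf growth, was at 9.41, 9.99 and 9.62 in controls and 10.83, 11.01 and 10.95 in mutants (1.26 ± 0.23, adjusted p = 0.00121). Its relative Osr1 was at 10.07 to 10.15 against 11.95, 12.20 and 11.65 (1.84 ± 0.24, adjusted p = 0.000197). The homeobox gene Shox2 was at 9.17, 10.34 and 9.53 against 12.13, 11.93 and 11.26 (2.09 ± 0.25, adjusted p = 9.65e-05). Lhx8, expressed in oral mesenchyme, was at 8.14, 8.80 and 6.75 against 10.06, 10.51 and 9.11, and Meox2 at 8.27 to 8.68 against 11.07, 11.00 and 9.64. Every mutant was above every control for each of these. Pou3f3, a factor of upper jaw mesenchyme, was at 8.93, 9.40 and 9.84 in controls and 10.87, 10.92 and 10.20 in mutants. Of the lower jaw markers, Hand2 stayed at 6.06 to 6.97 in all 6 arrays, but Dlx6 was lower in every mutant. Dlx6 read 9.74, 9.94 and 9.65 in controls and 9.04, 9.23 and 9.02 in mutants. The Pou3f3 call (adjusted p = 0.0122) was lost without control 1 (adjusted p = 0.0682), mutant 1 (0.0639) or mutant 2 (0.0619). In a fit of the 6 arrays alone, 7 palate genes rose.

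Of 14 adipogenic genes 4 rose and 0 fell (28.6%, against 12.2% of all genes), with a list median of 0.09. Pparg, the adipogenic nuclear receptor, was at 5.69 to 5.98 in controls and 7.44, 7.80 and 7.04 in mutants (1.61 ± 0.22, adjusted p = 0.000255). Lpl, lipoprotein lipase, was at 9.71 to 10.07 against 11.93, 11.61 and 10.78 (1.53 ± 0.30, adjusted p = 0.00176). The lipid droplet coat gene Plin2 was at 10.89, 11.03 and 10.93 against 11.70, 11.68 and 11.47 (0.67 ± 0.08, adjusted p = 8.9e-05). Hypoxia genes gave 3 rises and 3 falls of 26 (11.5% each), near the shares of all genes (12.2% and 11.1%), with Adm, adrenomedullin, at 6.07 to 6.44 against 8.54, 8.16 and 7.51, and Vegfa at 9.31 to 9.53 against 9.79 to 9.90. Of 32 cell cycle genes 7 fell and 1 rose (21.9% and 3.12%). The mitotic gene Cenpf was at 11.11 to 11.18 against 10.65, 10.69 and 10.83 (−0.41 ± 0.09, adjusted p = 0.00416), and the rise was that of the cyclin Ccnd3 (0.49 ± 0.08). Of 15 immediate early genes 7 rose and 1 fell (46.7% and 6.67%). Egr1 was at 10.77, 10.42 and 10.68 against 11.50, 11.18 and 11.74, and Fos at 9.34, 9.21 and 9.37 against 10.01, 9.76 and 10.78, with mutant 3 the highest in both.

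Beside Tgfbr2, Gpihbp1, Mitf, Plin2 and Shox2, given above, the smallest p-values included genes on none of the lists. Pros1, an anticoagulant protein and ligand of TAM receptors, was at 9.73, 9.80 and 9.76 in controls and 10.83, 10.81 and 10.41 in mutants (0.92 ± 0.10, adjusted p = 7.39e-05). Scara5, a ferritin receptor of fibroblasts, was at 10.07 to 10.21 against 11.99, 11.998 and 11.41 (1.65 ± 0.18, adjusted p = 7.39e-05). The membrane remodelling gene Ehd2, the growth hormone receptor Ghr and the mesenchymal sialomucin Cd248 rose by 1.11 ± 0.13, 0.72 ± 0.08 and 0.87 ± 0.10. Zfp36l2, which destabilises mRNAs, was at 11.73, 11.66 and 11.90 against 12.38, 12.45 and 12.40, with no difference between mutant 3 and the others (0.65 ± 0.08, adjusted p = 8.9e-05). The lowest p among falls was shared by Rasef, a small GTPase gene at 6.99, 7.58 and 7.17 against 4.09, 4.14 and 5.23 (−2.76 ± 0.29), and Lyrm9 at 8.12 to 8.37 against 7.19, 7.18 and 7.49 (−0.96 ± 0.10). Cecr2, a chromatin remodeller subunit, was at 7.16 to 7.38 against 5.84, 6.03 and 6.45 (−1.15 ± 0.13), and Sulf2, a heparan sulfatase, at 13.36 to 13.41 against 12.85, 12.87 and 12.93 (−0.50 ± 0.07). The groups did not overlap for any of these genes, as was so for 2734 of the 2984 called genes.

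Some called genes were nearly equal in the 3 mutants. Strn, a scaffold of a phosphatase complex, was at 9.32, 9.37 and 9.34 in controls and 9.60, 9.61 and 9.60 in mutants (0.26 ± 0.06, adjusted p = 0.0046), and was 0.12 and not called over the mean of its probe sets. The keratinocyte gene Sfn was at 7.81, 8.30 and 8.99 against 9.69, 9.67 and 9.65, and the anion transporter Slc26a7 at 10.58, 10.10 and 9.99 against 11.25, 11.25 and 11.21. The synaptic vesicle gene Vamp2 was at 9.87 to 9.96 against 9.53, 9.52 and 9.54 (−0.38 ± 0.11). The Vamp2 call was lost without control 1 (adjusted p = 0.0668), mutant 1 (0.0640) or mutant 2 (0.0609). These genes were named for this evenness, so it is a description.

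Mutant 3, the array with nasal lining signal, gave 16 calls when it was the lone mutant array, with its variance taken to be like that of the other groups. These calls were all among the 2984, in the same direction, but both fits used mutant 3 and the same controls. They included the rises of Tgfb2 (0.70), Plvap (0.58), Pros1 (0.64), Scara5 (1.26), Ehd2 (0.88), Zfp36l2 (0.63), the protease inhibitor gene Pi15 (0.63), the synaptic gene Lrrtm1 (1.42) and Fos (1.48), and the falls of Col8a2 (−1.31), Rasef (−2.02), Lyrm9 (−0.76) and the calcium-binding gene Caln1 (−1.64). With covariates for nasal and muscle content, 27 genes passed, 17 of them called in the same direction without covariates. Tgfbr2 (0.44 ± 0.08), Tgfb2 (0.74 ± 0.11), Plvap (0.64 ± 0.10), Gpihbp1 (0.67 ± 0.11), Esm1 (1.36 ± 0.25), Egr1 (1.08 ± 0.20), Col8a2 (−1.13 ± 0.18) and Rasef (−1.57 ± 0.22) were among them, with adjusted p between 0.0150 and 0.0372. Of the 27, 9 had the opposite sign without covariates. Among them were the ciliary genes Ccno and Hoatz, at 1.90 and 1.92 against −2.44 and −2.23, and Pifo, at 1.57 against −2.34 (adjusted p = 0.0486). The Pifo fall was lost without control 1 (adjusted p = 0.106), control 2 (0.0788), control 3 (0.126), mutant 1 (0.265) or mutant 2 (0.237).

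In the distal maxilla of the same genotypes, 25 genes were called (0.195%), 14 higher (0.109%) and 11 lower (0.0859%), and 22 of them were called in the same direction in the proximal maxilla, which is 88% of the distal and 0.737% of the proximal calls. Distal mutants were uneven too: mutant 1 differed from mutants 2 and 3 by a root mean square of 0.515 and 0.487. List means in distal mutants 1 to 3 were −0.49, 0.62 and 0.79 (nasal), −1.81, 0.41 and 0.40 (cartilage) and 0.98, −2.01 and −1.53 (muscle). The counts of calls at the maxilla ends therefore do not rank the size of the effect. Comparisons of the regions share no arrays, though pieces may come from the same embryos. The mutant effect differed between the ends of the maxilla at 1 gene (0.00781%), Krt25. It was 4.41 in the proximal and −1.54 ± 0.64 in the distal maxilla, a difference of 5.95 ± 0.90 (adjusted p = 0.0406). The next genes, which missed the threshold at an adjusted p of 0.108, were again of the follicle, pigment cells and skin: Tchh (4.15 ± 0.72), S100a3 (2.51 ± 0.47), Krt27 (2.30 ± 0.44), the follicle matrix gene Egfl6 (1.54 ± 0.28) and Mitf (1.10 ± 0.21). Same-numbered distal and proximal arrays of 1 genotype may share an embryo: their deviations over all genes correlated at 0.497, 0.181 and 0.11 in controls and 0.695, −0.087 and 0.633 in mutants. With genotype and number as a random block the count was 137, and with the replicate number as a block 0. It was 0 without control 1 or mutant 2, 2 without mutant 1, 4 without control 2, 37 without control 3 and 652 without mutant 3.

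Against the proximal mandible, where 556 genes were called (4.34%), 163 higher (1.27%) and 393 lower (3.07%), the mutant effect differed at 1325 genes (10.3%). In 800 of them it was more positive in the maxilla (6.24%) and in 525 in the mandible (4.1%). After centring each array on its median the split was 600 and 733. Calls made in the same direction in both numbered 128, which is 23.02% of the mandible and 4.29% of the maxilla calls, and 25 were in opposite directions. Of the 39 skeletal muscle genes 22 differed between the jaws: their median effect was 2.32 in the maxilla and −0.87 in the mandible, where 3 fell and 0 rose. Cartilage genes had medians of −2.16 and 0.87, and 6 of 28 differed. Of the 32 cell cycle genes 24 fell in the mandible, against 7 in the proximal maxilla, and 3 differed by the test.

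Fbln5 had the smallest p of this comparison, since it fell by 1.92 ± 0.11 in the mandible and by 0.51 in the maxilla (difference 1.40 ± 0.16, adjusted p = 0.000811). The cartilage intermediate layer gene Cilp fell by 2.25 in the mandible and was 0.52 ± 0.24 in the maxilla (2.78 ± 0.34, adjusted p = 0.00116), and the secreted factor gene Angptl1 was at −1.45 and −0.08 (1.38 ± 0.19, adjusted p = 0.00277). The neurotrophin receptor Ngfr rose by 1.17 in the maxilla and was at −0.54 in the mandible (1.71 ± 0.24), and the matrix gene Emilin2 likewise had 1.54 and −0.38 (1.91 ± 0.30). Bbox1, a carnitine synthesis enzyme, had 0.30 and −0.49 (0.79 ± 0.12). On the negative side, Tnfrsf11b fell by 1.41 in the maxilla and rose by 1.38 in the mandible (−2.79 ± 0.45, adjusted p = 0.0062), and Ccpg1, Armh4 and Cryzl2 had differences of −0.56, −1.13 and −1.01. Rasef and Cecr2 fell in the maxilla and were near 0 in the mandible, at 0.08 and 0.04. The count was 213 to 856 without mutant 1, mutant 2 or any 1 control, 2651 without mutant 3 and 0 without mutants 1 and 2. The proximal maxilla calls of Bbox1 and Ccpg1 were lost without control 1 (adjusted p = 0.0720 and 0.0895) or mutant 2 (0.128 and 0.149), and that of Ccpg1 also without control 2 (0.107) or mutant 1 (0.107).

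A small set of genes did pass in the proximal maxilla, the distal maxilla and the proximal mandible in 1 direction: 16 genes, 7 higher and 9 lower in mutants. The complement protease C1s1 was at 7.33 to 7.48 in control and 8.79, 8.71 and 8.34 in mutant proximal maxilla (1.22). The matrix genes Sned1 and Vit were higher by 1.58 and 1.04, the costimulatory receptor Cd40 by 0.97, the purine receptor P2ry12 by 1.14 and the fructose kinase Khk by 0.48, beside Gpihbp1. The integrin Itga9 was at 8.96 to 9.44 against 8.24, 8.38 and 8.26 (−0.93), and the histone variant gene H2az2 at 13.12 to 13.32 against 12.40 to 12.65 (−0.73). Col8a2, Fbln5, Mfap4, Erg, Racgap1, Sertad4 and Tmem255a made up the other falls. In all 16 genes the mutant and control values of the proximal maxilla did not overlap, as for 2734 of the 2984 called genes. The gap was narrowest for Tmem255a, at 9.67 to 9.94 in controls and 9.63, 9.61 and 9.29 in mutants. The proximal maxilla calls of Sertad4 and Tmem255a were lost without control 2 (adjusted p = 0.0563 and 0.158) or control 3 (0.0562 and 0.0771), that of Sertad4 without mutant 1 (0.116) and that of Tmem255a without mutant 3 (0.160).

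**Figure D4:**
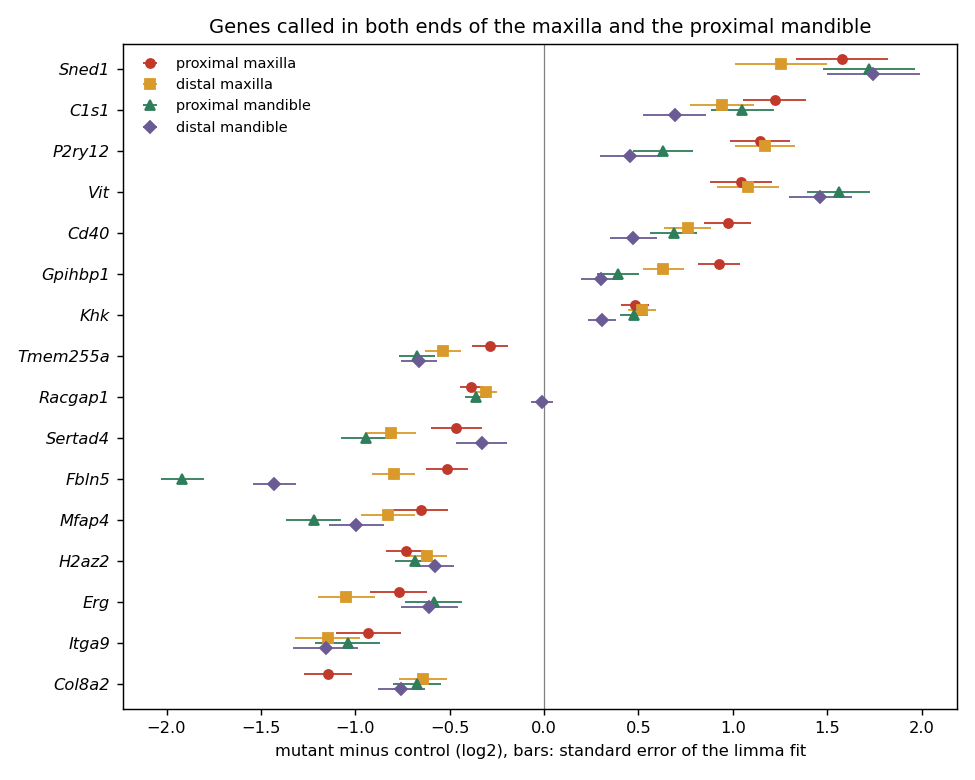
Mutant minus control difference (log2) with its standard error in each of the 4 jaw regions, 3 arrays per group, for the 16 genes called in the same direction in the proximal maxilla, the distal maxilla and the proximal mandible. Their effects in the proximal maxilla run from 1.58 for Sned1 to −1.14 for Col8a2, and 8 genes were called in all 4 regions.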

How the data were processed

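RNA from 24 jaw pieces in 8 groups of 3 was measured on Affymetrix arrays. The submitters' processing notes name RMA and Partek 6.6. The authors deposited 1 table of log2 values (3.44 to 14.8, array medians 6.93 to 7.00); their range is what shows the log2 scale. RMA settings and a genome build were not given in the sources used here. Near the array's floor, differences come out too small.

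Of 45101 probe sets, 34958 had 1 symbol, 932 several and 9211 were unnamed here, and 64 array controls were left out. Of the 34945 used, 34741 matched a mouse RefSeq gene table by Entrez identifier. They covered 18193 genes, each represented by its brightest probe set. Genes above their array's median in at least 3 of 24 arrays were tested (12811). Columns of no listed sample numbered 0. limma 3.58.1 in R 4.3.3 (lmFit, eBayes) fitted all 24 arrays, with Benjamini-Hochberg adjustment over all genes tested and a threshold of 0.05. The median standard error was 0.106; precision is set by having 3 arrays a group. The fit was tested on simulated data first. Alternatives covered the arrays fitted, blocks, weights, filters, probe set rule, scaling and tissue covariates.

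The members, the 34 gene lists and the rules were chosen with earlier results of these data known. Genes named were drawn from the largest, smallest-p and most even differences each way, list members that passed or define a list, the interaction and covariate calls, and genes shared between regions or called with mutant 3 alone. Runx2 and Bglap were not analysed here.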

Additional observations from a re-analysis of the deposited data

Results flagged for a closer look

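The mutant effect differed between regions, by the test of the difference itself, for 13 of the genes named. Between the proximal and distal maxilla this was Krt25, with a difference of 5.95. Between the proximal maxilla and the proximal mandible, positive differences were those of Cilp (2.78), Emilin2 (1.91), Ngfr (1.71), Fbln5 (1.40), Angptl1 (1.38) and Bbox1 (0.79). Negative differences were those of Rasef (−2.84), Tnfrsf11b (−2.79), Cecr2 (−1.18), Armh4 (−1.13), Cryzl2 (−1.01) and Ccpg1 (−0.56). These genes were picked for their small p in that test.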

How the results depend on the processing

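The count of 2984 genes for mutant against control ran from 1363 to 3932 when single arrays were left out. It was 16 without mutants 1 and 2, 1630 with the 12 maxilla arrays, 761 with the 6 arrays (730 of them shared), 6205 with array weights, 812 at 2-fold, 27 with nasal and muscle covariates, 5 with epidermis added and 910 without the low-Xist controls. The epidermis covariate, the Xist choice and the list counts without mutant 3 were chosen after seeing the data. The difference between maxilla ends, at 1 gene, ran from 0 to 652 without single arrays. It was 0 with the 12 arrays, a stricter filter, every probe set, requantiled or centred arrays and without mutants 1 and 2, 137 with a random block, 5 without a filter, 2414 with weights, 3 and 5 with the covariates and 19 without the low-Xist controls. The difference between jaws, 1325, ran from 213 to 2651, and was 2872 with a random block, 4549 with weights, 5 and 8 with the covariates, 202 without the low-Xist controls and 0 without mutants 1 and 2. The replicate number as a block gave 4025, 0 and 2261 genes in the 3 comparisons. Deviations of same-numbered mutant and control arrays correlated at 0.0355, 0.266 and −0.0127, and whether these pairs share a litter or batch was not tested.

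With nasal and muscle covariates the sign turned, short of the threshold, for Bpifa1 (0.91), Otx2 (0.86), Neurod1 (0.074), Foxa1 (0.83), Epcam (0.12), Matn1 (1.97), Col2a1 (0.81) and Sox9 (0.22), and past it for Ccno (1.90), Hoatz (1.92) and Pifo (1.57). With epidermis added the values were 1.17 for Bpifa1, 0.34 for Otx2, 0.0003 for Neurod1, 0.10 for Foxa1, 2.20 for Matn1, 1.09 for Col2a1, 0.0070 for Sox9 and 1.40 for Pifo, which was 0.52 without mutants 1 and 2. The covariates are list means of the same arrays and lie apart by genotype in the 6 compared, so these values are not net of tissue content. The cause of the sign changes was not tested. Of 148 called genes named, 124 kept their call without each of the 6 arrays in turn, and the other 24 are given with their values beside their results. Calls were lost for 52 with the 6 arrays, 24 with the 12 maxilla arrays, 59 without the low-Xist controls and 134 without mutants 1 and 2. With nasal and muscle covariates 125 were lost, and with epidermis added 136. Sign changes are counted over all 166 genes looked at, called or not. They numbered 11 with nasal and muscle covariates, among them Ccno and Hoatz, which the main fit did not call, and 8 with epidermis added. Over the mean of a gene's probe sets 6 were lost: Fbln5 (−0.18), Ptch1 (0.33), Sox9 (−0.92), Strn (0.12), Tmem255a (−0.31) and Vamp2 (−0.19).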

Other observations

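Xist was high in control number 2 of the distal maxilla, distal mandible and proximal mandible (12.97, 12.55 and 12.43) and low in control number 2 of the proximal maxilla (6.49).
The labels do not settle whether control number 2 is the same embryo in all 4 regions.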
